A study of Mus musculus with 3 samples.

Results

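The genes described here repair DNA or signal that it is damaged. They were taken from a list of 37 gene names, and a gene's probe sets were those whose sole annotated symbol was on that list. This gave 85 probe sets of 36 genes among the 18194 genes of the array, and Xrcc2 was not analysed here. Of the 36 genes, 35 exceeded the background somewhere, 33 of them on all 3 arrays. Bard1, the partner of Brca1, lay below it on every array (21.45, 20.23 and 19.88 at days 6, 14 and 28). It enters none of the reported counts of differences, but it is among the 36 genes, the 85 probe sets and the promoter windows.

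The cells were melan-a NRAS61K cells, mouse melanocytes immortalized in culture that carry the NRAS61K oncogene, and 1 array was made after each of 6, 14 and 28 days with doxycycline at 1 µg/ml. Every array thus shares the line, the oncogene and the drug, and none of the arrays stands for cells without doxycycline. The series counts 4 samples, of which 3 were analysed here. The labels name 1 line and do not say what doxycycline controls. The series title speaks of tumorigenic cells arising from cells made senescent by this oncogene, and the time course shows how the repair genes stood as treatment went on.

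Cells repair breaks in both strands of DNA either by homologous recombination, which copies the sister chromatid and so works after replication, or by end joining, which needs no template. The Fanconi anaemia proteins unhook crosslinks that block replication forks, mismatch repair removes copying errors, and base excision repair replaces single damaged bases. The kinases Atm and Atr sense breaks and stalled forks and act through Chek2 and Chek1 to hold the cell cycle. Many recombination and Fanconi genes are transcribed mostly in cells that are about to copy or are copying their DNA, while end joining genes are transcribed through the cycle. Persistent damage signalling is a known feature of senescence caused by oncogenes.

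Values are expression values as the authors deposited them, read as log2 values with a base of 2 inferred, and every fold rests on that base. They had been quantile normalized across arrays. A difference is therefore relative to the other genes of the array. Background was read from 99 probe sets of 68 genes silent in pigment cells, as their 90th percentile on each array, at 22.98, 22.82 and 22.84 for days 6, 14 and 28. A comparison took in each gene that exceeded this on either of its arrays, through the probe set with the highest mean. Where the dimmer array lay below the background, the fold is a bound, taken against the background and written as at least; counts and medians use the deposited differences. With 1 array a day no test between days was possible, and a fold compares those arrays. The error at hand was the disagreement of probe sets of 1 gene, whose pooled SD of the log2 difference between days 28 and 6 was 0.37 over 5351 genes and 0.30 over the 18 members with several probe sets above the background. This SD covers measurement and not culture.

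The line showed 10, 9 and 9 of 15 melanocyte markers above the background at days 6, 14 and 28, while Tyr, which makes melanin precursors, Kit, Oca2, Trpm1 and Rab27a lay below it on all. Over the 10 melanocyte markers described the median log2 difference between days 6 and 28 was 0.66, with 7 above 0 and 3 below. The pigment genes Dct and Mlana were 18.4-fold and 17.5-fold higher at day 28. At the other end stood Pmel (-0.02), Tyrp1 (-0.11) and Ednrb, which exceeded the background at day 6 alone, at 23.28. Of other cell types, 6 of 11 fibroblast, 4 of 10 leukocyte, 2 of 9 keratinocyte and 1 of 9 endothelial markers exceeded the background at day 28. The mean over the fibroblast markers was 22.52, 23.15 and 23.10 at days 6, 14 and 28, and over the leukocyte markers 22.46, 22.39 and 22.76. Over the keratinocyte markers it was 22.05, 21.98 and 22.00, and over the endothelial markers 21.12, 20.28 and 21.79. Lum and Thy1, Ptprc and Itgam, Krt14 and Trp63, and Pecam1 and Kdr, which define these types, lay below the background throughout. The fibroblast markers went both ways between days 6 and 28, from 3.06-fold higher for Pdgfra and 2.46-fold for Ogn to -0.37 for Col1a1 and -0.08 for Col3a1. So did the leukocyte markers, from 6.70-fold higher for Lyz2 and 1.86-fold for Cd68 to -0.13 for Adgre1 and -0.31 for Csf1r. Cdh5, the sole endothelial marker above the background, was 18.7-fold higher. For the Actb control, the probe set at the 3' end exceeded that at the 5' end by 0.58, 0.76 and 0.75 on the log2 scale at days 6, 14 and 28, and the poly-A controls had means of 23.86, 24.07 and 24.30. The part of these in the differences below was not tested.

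Between days 6 and 28 the repair and checkpoint genes were lower almost throughout. Exo1, a nuclease that trims broken ends for recombination, was 3.43-fold lower, Fancb of the Fanconi core complex 2.93-fold lower, the checkpoint kinase gene Chek1 2.71-fold lower and Rad54l, a motor protein of strand exchange, 2.67-fold lower. In all, 9 of 35 members were at least 2-fold lower and 0 were higher, where 3.98% of the 11467 genes described were lower and 6.67% higher. At 1.5-fold, 18 members were lower and 0 higher, against 12.1% and 16.0% of all genes. The median log2 difference of the members was -0.62, and that of all genes 0.02. Of the 35, 31 lay below 0, and the other 4 were Fancg, Parp2, Lig3 and Atm, at 0.00 to 0.16.

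**Figure D1:**
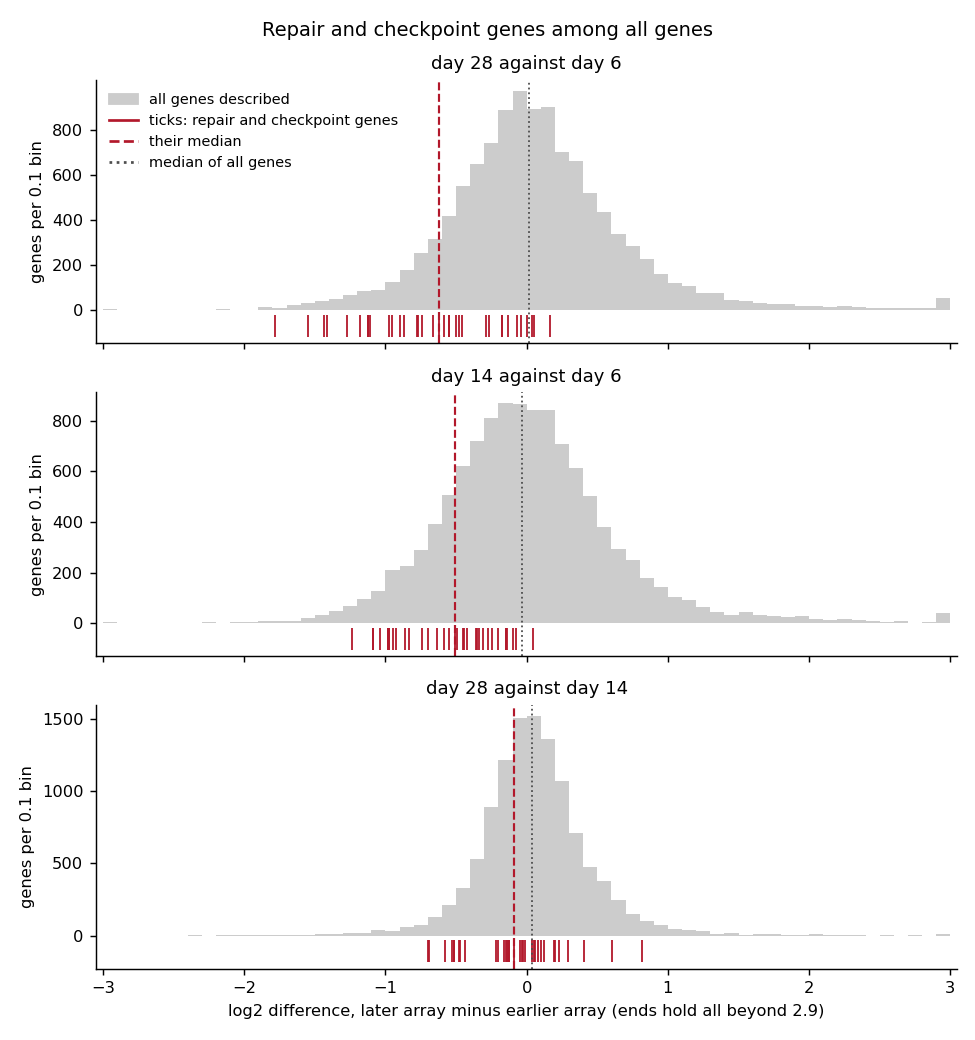
Number of genes per bin of the log2 difference (vertical axis) against the log2 difference of the later from the earlier array (horizontal axis), with 1 panel for each comparison; red ticks are the repair and checkpoint genes, the dashed line their median and the dotted line that of all genes. The ticks spread from -1.78 to 0.16 for day 28 against day 6 and from -1.23 to 0.04 for day 14 against day 6, and lie around a median of -0.09 for day 28 against day 14.

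The promoter windows shown are of the 4 genes lowest at day 28 against day 6, among those with a window and above the background on both arrays. They were picked by this difference alone. Beside them stands the window of Atm, the gene above the background on both arrays with the smallest difference. RefSeq sequences of assembly GRCm38.p6, from 250 bases before to 50 after the gene start, were at hand for 33 of the 36 genes. These genes have 38 windows in all, and only the first listed of each gene was read. Exo1, Fancd2 and Nbn have none in the table. The Fancb window lies at chrX:164980342-164980641 on the plus strand and that of Chek1 at chr9:36726609-36726908 on the minus strand. Rad54l is at chr4:116123641-116123940 (minus strand), Fancl at chr11:26386834-26387133 (plus strand) and Atm at chr9:53536622-53536921 (minus strand). Capitals mark the letters of the motifs described below, on either strand.
Fancb: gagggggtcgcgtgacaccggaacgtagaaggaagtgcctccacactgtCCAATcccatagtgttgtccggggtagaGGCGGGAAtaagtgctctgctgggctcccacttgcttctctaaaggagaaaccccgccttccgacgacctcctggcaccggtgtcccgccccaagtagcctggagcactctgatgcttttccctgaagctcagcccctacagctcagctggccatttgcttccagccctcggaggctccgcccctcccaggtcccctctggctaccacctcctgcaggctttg
Chek1: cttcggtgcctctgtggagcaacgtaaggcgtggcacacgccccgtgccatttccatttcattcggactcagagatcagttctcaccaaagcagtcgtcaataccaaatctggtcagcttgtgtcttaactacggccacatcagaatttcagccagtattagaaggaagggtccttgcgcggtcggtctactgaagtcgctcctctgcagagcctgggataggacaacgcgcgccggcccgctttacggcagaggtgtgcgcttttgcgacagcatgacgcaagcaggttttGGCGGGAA
Rad54l: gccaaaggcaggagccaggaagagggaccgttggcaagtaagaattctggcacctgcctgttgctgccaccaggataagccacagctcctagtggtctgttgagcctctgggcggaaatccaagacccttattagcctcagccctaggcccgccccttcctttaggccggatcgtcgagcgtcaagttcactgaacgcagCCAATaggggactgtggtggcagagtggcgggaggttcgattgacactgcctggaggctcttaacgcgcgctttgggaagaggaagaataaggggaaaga
Fancl: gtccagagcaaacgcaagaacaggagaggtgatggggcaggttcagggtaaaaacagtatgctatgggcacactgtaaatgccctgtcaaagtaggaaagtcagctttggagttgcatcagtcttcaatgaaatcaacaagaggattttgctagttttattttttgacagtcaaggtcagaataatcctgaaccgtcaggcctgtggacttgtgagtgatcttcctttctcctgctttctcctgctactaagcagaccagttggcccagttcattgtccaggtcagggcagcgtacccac
Atm: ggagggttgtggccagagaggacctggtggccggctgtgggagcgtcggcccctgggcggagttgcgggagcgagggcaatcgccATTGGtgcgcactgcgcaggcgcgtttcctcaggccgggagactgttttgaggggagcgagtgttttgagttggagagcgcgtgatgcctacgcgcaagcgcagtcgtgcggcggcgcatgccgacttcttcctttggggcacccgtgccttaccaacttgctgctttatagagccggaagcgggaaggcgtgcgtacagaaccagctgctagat

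Cell cycle genes often carry sites for E2F factors, CHR elements and CCAAT boxes near their starts, so the letters of these were searched on both strands. The E2F strings TTTCCCGC and TTTGGCGC and the core TTCGCGC stood in 10 of 33 member windows, where 3.06% of all 32851 windows held at least 1 of them. None of the 7 windows of members at least 2-fold lower at day 28 held any, while 2 of 8 did among those 1.5-fold to 2-fold lower (Brca2 and Chek2) and 7 of 17 among the other members above the background. Those were Fancg, Lig4, Rad51c, Fancm, Msh3, Xrcc6 and Msh6, and the window of Bard1 also held one. In Msh3 the site and the core overlap. A further E2F string, TTCCCGCC, was added after the windows were read, and it stood in those of Chek1, Fancb, Fancm and Msh6, overlapping the site in Msh6. With it 12 of 33 member windows and 4.67% of all held E2F letters. Of the 7 windows of members at least 2-fold lower, 2 then held them, those of Chek1 and Fancb. The counts of the other groups stayed at 2 of 8 and 7 of 17. The CCAAT box stood in 18 of 33 (54.5%) against 37.4% of all windows, and the CHR letters TTTGAA in 1 of 33, that of Bard1, against 17.9%. The windows compared were not matched on base composition. A match is a description of letters, and a missing one says only that these strings are not in this window.

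**Figure D2:**
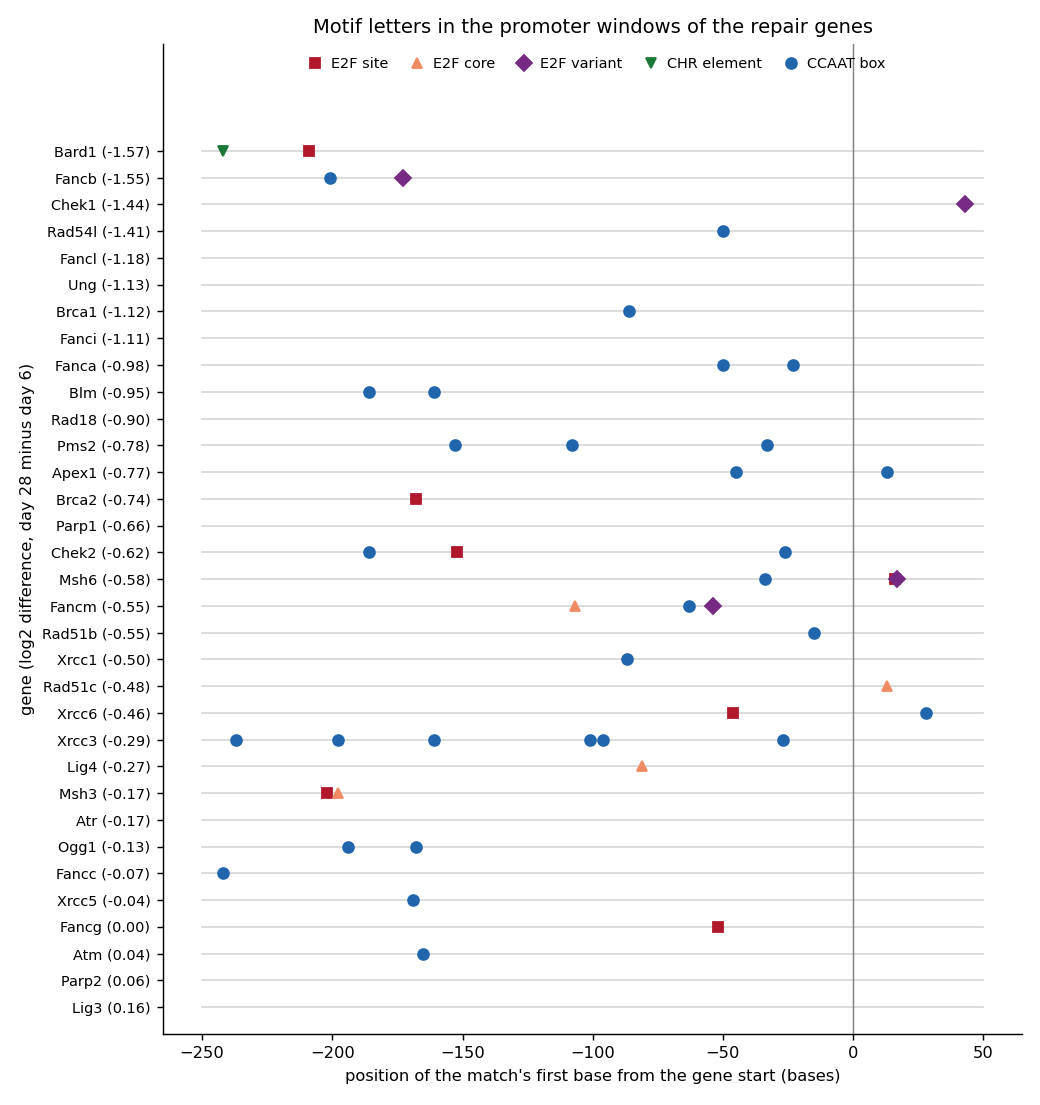
Position of each motif match in the promoter window (horizontal axis, bases from the gene start) for the 33 genes with a window (vertical axis), ordered by the log2 difference of day 28 from day 6 given beside the name, lowest at the top. The E2F site and E2F core symbols lie in 10 rows, none of them among the 7 genes at least 2-fold lower that were above the background. The E2F variant, a string added later, lies in 2 of those 7 rows, Chek1 and Fancb.

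Recombination genes were among the lowest. Exo1 had values of 25.98, 24.90 and 24.20 at days 6, 14 and 28, which placed its difference between days 6 and 28 at rank 51 from the lowest among 11467 genes. Its only other probe set above the background exceeded it at day 6 alone, and by day 28 that probe set was at least 2.46-fold lower. Rad54l went from 25.90 to 24.92 and 24.48. Of its other probe sets, 1 was at least 2.36-fold lower, as its day 28 value lay below the background, and the others gave -1.16 and 0.03, the last from values of 22.97 to 23.10 near the background, and with all averaged the gene stood at -0.95, short of 2-fold.

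Brca1, a ubiquitin ligase that steers breaks towards recombination, was measured at 26.55, 26.00 and 25.43, and was 2.18-fold lower at day 28 than at day 6. Of its other probe sets above the background on some array, 1 gave -1.39 and 1, below the background at day 28, was at least 2.56-fold lower. Brca1 was thus more than 2-fold lower on each of these probe sets. On the probe set used the difference was about as large between days 14 and 28 (-0.58) as between days 6 and 14 (-0.55).

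Brca2, which loads the recombinase onto single-stranded DNA, stood at 25.49, 24.51 and 24.74. The day 14 array held its lowest value, and at day 28 it was 1.67-fold lower than at day 6. The helicase gene Blm, whose product dissolves crossed strands, stood at 25.51, 24.65 and 24.56 and was 1.93-fold lower at day 28. Nbn, a subunit of the complex that first binds broken ends, stood at 25.55, 25.21 and 24.68 and was 1.82-fold lower. For Blm nearly all of the difference lay between days 6 and 14 (-0.86 of -0.95), and for Nbn the second step was the larger (-0.53 against -0.34).

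Rad51b, Rad51c and Xrcc3 encode related proteins that assist strand exchange. Rad51b stood at 23.79, 23.04 and 23.24 and Rad51c at 23.65, 22.56 and 23.17, both lowest at day 14. Rad51b was 1.67-fold lower at day 14 than at day 6. At day 14 Rad51c lay below the background of 22.82, so it was at least 1.77-fold lower than at day 6. Xrcc3 differed by -0.29 between days 6 and 28. These assisting genes were thus lower at day 28 by less than the 2-fold set for a call, and each is dim, lying within 1 log2 unit of the background at day 6. Of the 9 recombination genes described, 3 were 2-fold lower and 6 were 1.5-fold lower, where 3.98% and 12.1% of all genes were. Their median was -0.87.

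The Fanconi anaemia genes differed by unlike amounts between days 6 and 28. Of the 9 Fanconi and post-replication genes, 8 lay below 0 and 6 were at least 1.5-fold lower, where 12.1% of all genes were. Fancd2 and Fanci encode the clamp that is placed at crosslinks. Fancd2 stood at 24.84, 23.61 and 23.57 and was 2.41-fold lower at day 28, with -1.52 on its other probe set above the background. Fanci stood at 25.17, 24.19 and 24.07 and was 2.15-fold lower. In both genes almost all of the difference was present at day 14 (-1.23 of -1.27 and -0.99 of -1.11).

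Fancl, the ligase that marks this clamp with ubiquitin, stood at 25.45, 24.76 and 24.27 and was 2.27-fold lower at day 28. In the core complex around it, Fancb stood at 24.72, 23.68 and 23.17. On its other probe set the day 28 value did not exceed the background, so it was at least 1.80-fold lower there. Fanca stood at 25.78, 25.28 and 24.81 and was 1.97-fold lower. Fancc differed by -0.07 between days 6 and 28 on the probe set used, which lay near the background, at 23.65 and 23.59. Of its other probe sets, 1 gave -0.04 and 1, below the background at day 28, was at least 1.15-fold lower. Fancg differed by 0.00 and lay at 22.89 to 22.97, at the background, so a difference in it would be hard to see. Fancm, a motor protein that brings the complex to DNA, differed by -0.55.

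Rad18 marks the sliding clamp at stalled forks and was 1.86-fold lower at day 28 than at day 6, and lower on all of its 4 probe sets, at -1.16 to -0.89. These disagreed on day 14. The probe set used stood at 25.75, 25.55 and 24.85, so most of its difference lay in the second step. Another stood at 25.15, 22.98 and 24.13, with a difference of -2.18 between days 6 and 14 and then 1.15 between days 14 and 28. Averaged over its probe sets, Rad18 differed by -1.09 between days 6 and 14 and by 0.09 between days 14 and 28, so its course is not settled by these probe sets. Of the 9 Fanconi and post-replication genes, 4 were 2-fold lower at day 28 than at day 6, against 3.98% of all genes. Their median was -0.98.

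**Figure D3:**
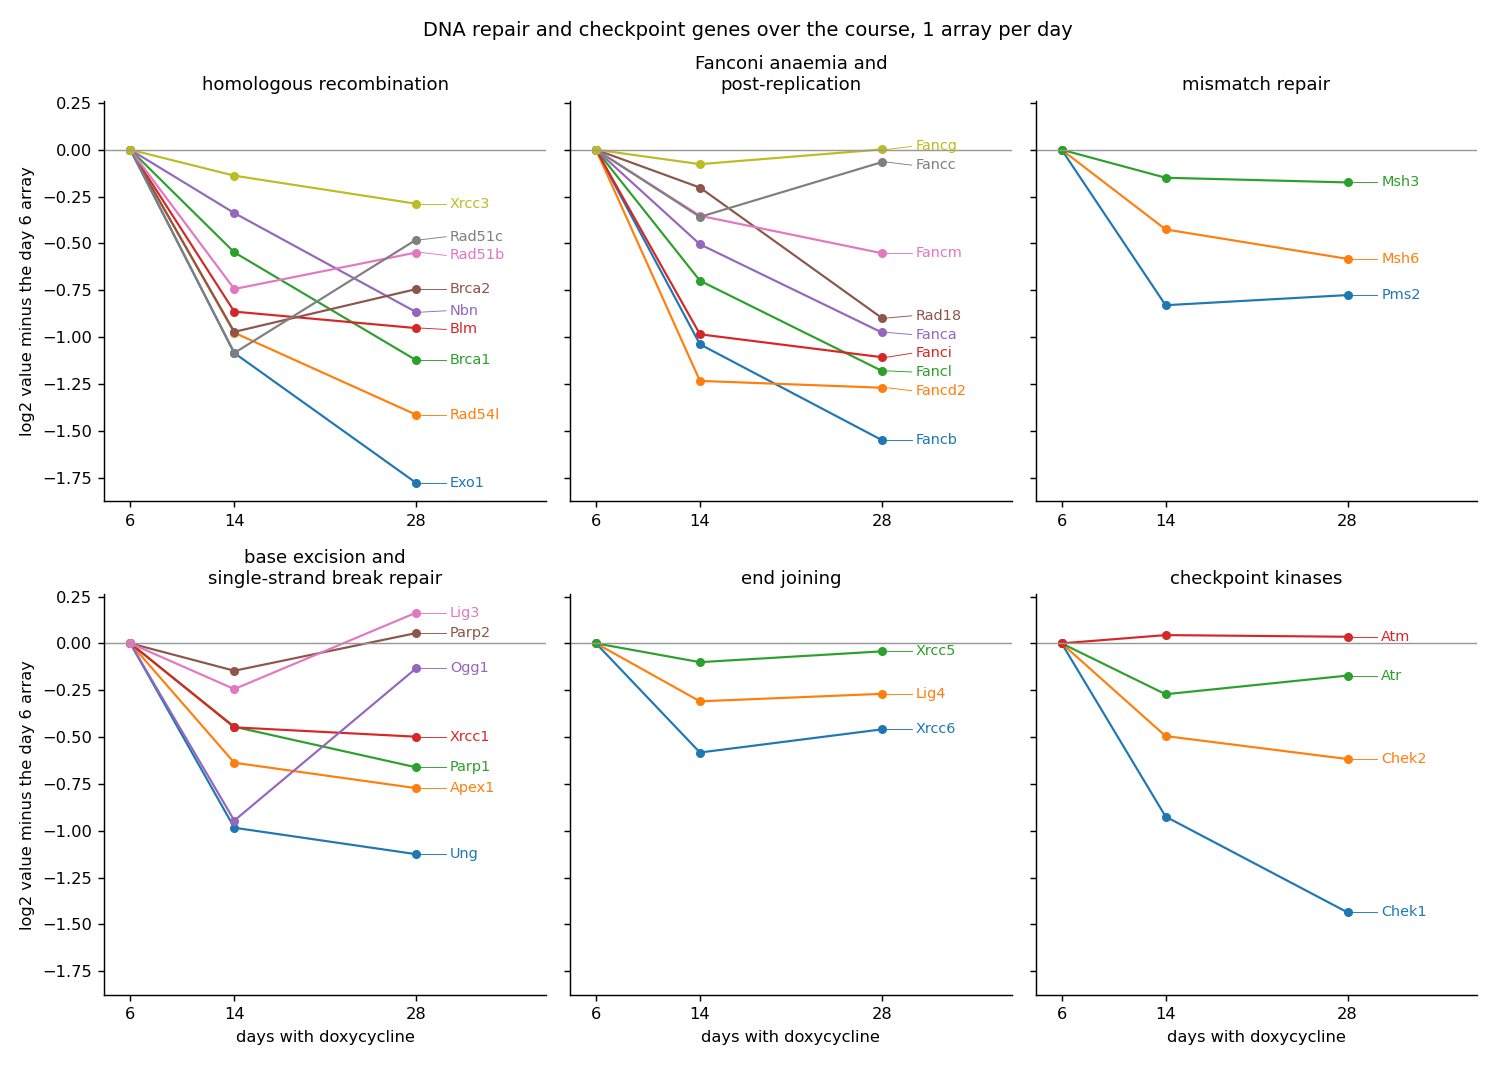
Log2 value minus that of the day 6 array (vertical axis) against days with doxycycline (horizontal axis) for the 35 genes above the background on at least 1 array, in 1 panel per role, with 1 line per gene and 1 array per point. Most lines descend to day 14; Exo1 ends lowest at -1.78, and Rad51c and Ogg1 turn up after day 14.

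Chek1, the kinase that halts the cycle when forks stall, stood at 26.23, 25.31 and 24.80. Of its other probe sets above the background on some array, 1 gave -1.58 and 1, which exceeded the background at day 6 alone, was at least 1.41-fold lower at day 28. Chek2, the kinase below Atm, stood at 25.44, 24.95 and 24.82 and was 1.53-fold lower at day 28. The sensor kinases upstream differed little: Atm stood at 26.19, 26.23 and 26.23 and Atr differed by -0.17. The sign of Atm was not settled, since its other probe set gave -0.23 and the mean over both -0.10. So the effector kinase gene Chek1 was 2-fold lower on 2 of 3 probe sets above the background, the remaining one giving a bound short of that. Atm and Atr were within 0.39 of 0 on all of theirs.

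Base excision genes ranged from 2-fold lower to level. Ung, which cuts uracil out of DNA, stood at 24.99, 24.00 and 23.86 and was 2.18-fold lower at day 28. Apex1, the nuclease that cuts at the emptied site, stood at 28.13, 27.49 and 27.36 and was 1.71-fold lower at day 28, and its 3 probe sets gave -0.77 to -0.55. Parp1, which senses nicks, stood at 26.84, 26.39 and 26.18 and was 1.58-fold lower, and its 3 probe sets above the background gave -0.69 to -0.66.

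Ogg1, which removes oxidized guanine, stood at 24.83, 23.88 and 24.70, low on the day 14 array alone, by 1.93-fold against day 6. Its other probe set lay at 23.17 to 23.27 and showed no such dip. Xrcc1, the scaffold of nick repair, differed by -0.50 between days 6 and 28, and Parp2 by 0.06. Lig3, the ligase bound to Xrcc1, gave 0.16 on the probe set used and -0.30 to -0.21 on the others above the background. Of these 7 genes 1, Ung, was 2-fold lower, against 3.98% of all genes, and the median was -0.50. When probe sets that may be shared between transcripts were left out, Ung and Xrcc1 dropped out, 0 of 5 were 2-fold lower and the median was -0.13.

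Of the 3 genes listed under mismatch repair and the 3 under end joining, none was 2-fold apart between days 6 and 28. Exo1, 3.43-fold lower, also acts in mismatch repair but was counted under recombination alone. Pms2, a mismatch repair nuclease, stood at 24.77, 23.94 and 23.99 and was 1.71-fold lower at day 28, with -0.38 on its other probe set above the background. Msh6 and Msh3, which recognize mismatches, differed by -0.58 and -0.17. Xrcc6 and Xrcc5, which form the ring that holds broken ends, differed by -0.46 and -0.04, and Lig4, which seals them, by -0.27. The medians were -0.58 for the 3 mismatch repair genes and -0.27 for the 3 end joining genes. Recombination and Fanconi genes together held 7 of the 9 genes that were 2-fold lower, but the difference between roles was not tested.

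**Figure D4:**
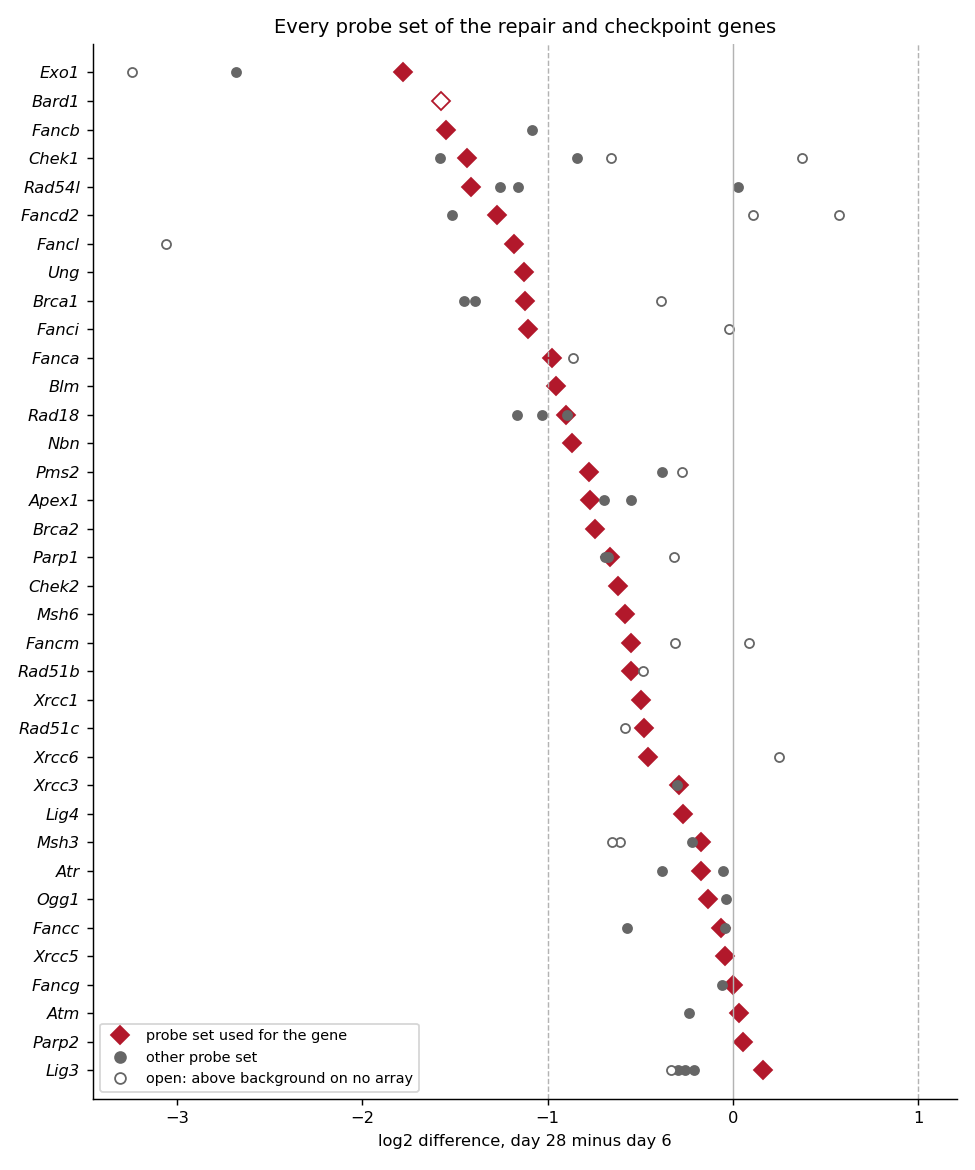
Log2 difference of day 28 from day 6 (horizontal axis) on each of the 85 probe sets of 36 genes (vertical axis); red diamonds are the probe sets used, grey circles the others, and open symbols lay above the background on no array. Of the 65 probe sets above the background, 60 lie below 0, 19 at or below -1 and 0 at or above 1 as deposited, and 18 were 2-fold lower by value or bound.

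Among the members 2-fold lower at day 28, 6 had another probe set above the background. By value or bound, at least 1 further probe set was 2-fold lower in 5 of them, Fancb being the exception, and all were in 3, which were Exo1, Brca1 and Fancd2. All further probe sets were lower in 5, the exception being the dim probe set of Rad54l given above. The direction thus rested on more than 1 probe set for these 6 genes, while Fancl, Ung and Fanci had 1 probe set above the background each.

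Other repair genes, listed by similar roles, are given for comparison, and the genes named are the lowest and highest among those above the background on both arrays. Over all genes, 3.98% were 2-fold lower at day 28 than at day 6 and 6.67% higher. Of 22 further recombination and crosslink repair genes described, 8 were 2-fold lower and 0 higher, with a median of -0.60. Gen1, which cuts crossed strands, was 3.23-fold lower, the nuclease subunit gene Eme1 2.75-fold lower and Rad51ap1, an aid of strand exchange, 2.53-fold lower. At the other end Wdr48 differed by 0.30, Mus81 by 0.31 and the helicase gene Rtel1 by 0.95, or 0.16 when its probe sets were averaged.

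Of 30 further excision, mismatch and end joining genes, 0 were 2-fold lower and 0 higher, with a median of -0.11. This list also held the translesion genes Polh, Polk, Rev1 and Rev3l, whose products copy past damaged bases. Neil3 differed by -0.91, Ercc8 by -0.53 and Ercc1 by -0.37, while Prkdc (0.56), Rev3l (0.61, or 0.13 when probe sets were averaged) and Xpc (0.91), which finds bulky lesions, were the highest. Of 24 further checkpoint genes 4 were 2-fold lower and 0 higher, with a median of -0.40. Cdc25a, which Chek1 targets, was 2.77-fold lower, Clspn, the adaptor through which Atr reaches Chek1, 2.72-fold lower and Timeless of the fork protection complex 2.50-fold lower. Ppm1d (-0.04) and Rad17 (-0.02) were level and Trp53bp1 stood at 0.53.

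Genes of DNA copying and division moved on the same arrays. Of 38 replication genes, 20 were 2-fold lower at day 28 than at day 6 and 0 higher, with a median of -1.01. The median was -1.08 over 13 proliferation genes, of which 7 were 2-fold lower. With dim values set at the background, the latter were -0.93 and 6, since E2f2 lay below it at day 28. Mcm5, Mcm10 and Cdc6 were 3.61-fold, 3.49-fold and 3.02-fold lower, and Plk1, Birc5 and Aurka 3.49-fold, 3.27-fold and 3.06-fold lower. At the other end of these lists stood Pcna (-0.40), Dbf4 (-0.30) and Pold3 (-0.13), and Bub1 (-0.77), Cdk2 (-0.43) and E2f1 (0.33). The part of fewer dividing cells in the lower repair genes was not tested, and in RNA of whole cultures fewer cells of a kind and less RNA per cell cannot be told apart.

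Genes that p53 switches on after damage did not share one direction. Of 16 described, 1 was 2-fold lower and 1 higher at day 28 than at day 6, and the median was -0.10. The nuclease gene Aen was 2.27-fold lower, while Sesn2 (-0.81) and Tigar (-0.47) were the next lowest. Sesn1 was 2.01-fold higher, which fell short of 2-fold when probe sets were averaged, with Trp53inp1 at 0.94 and Ei24 at 0.48. The 12 reference genes had a median of -0.16, with Tfrc at -0.76, Hprt at -0.56 and Sdha at 0.21 as examples of their range.

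**Figure D5:**
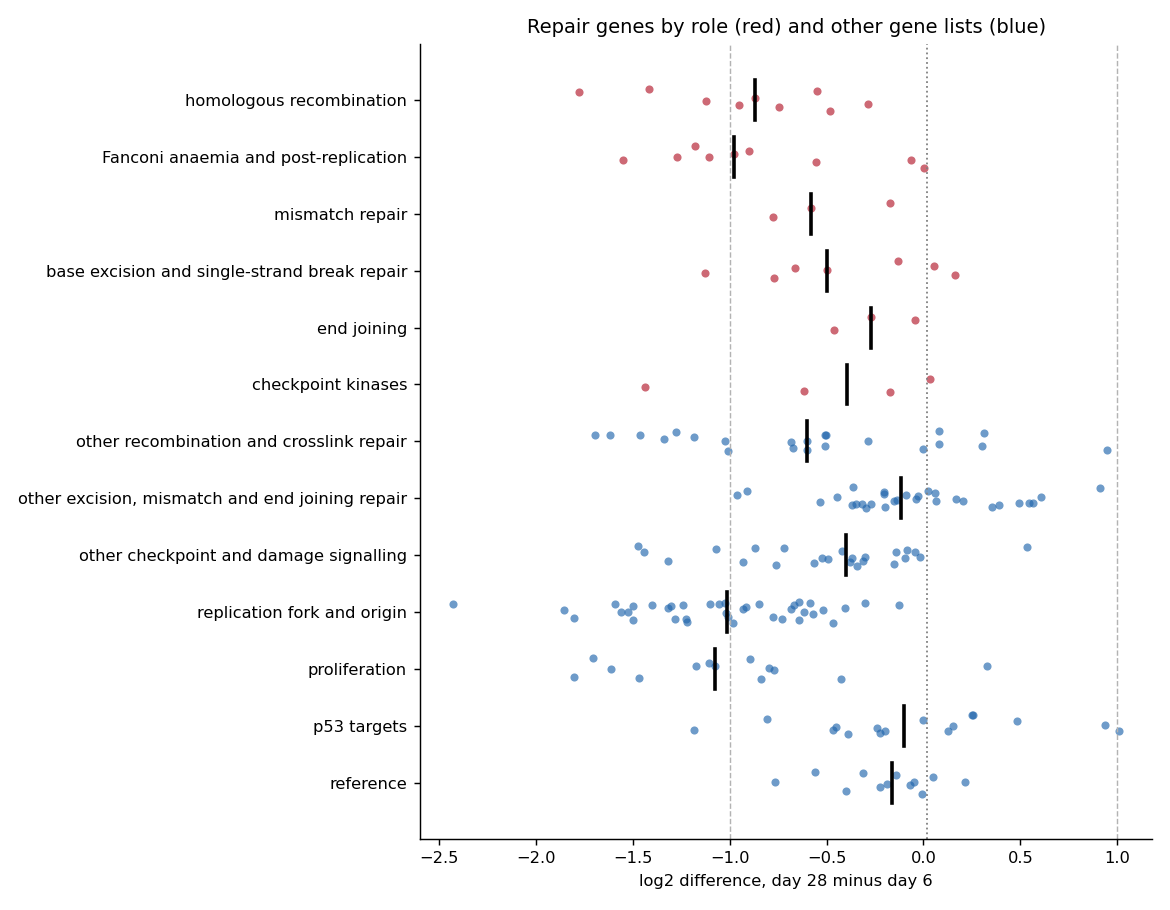
Log2 difference of day 28 from day 6 (horizontal axis) for each gene described, by list (vertical axis), with the repair and checkpoint genes by role in red, other lists in blue, a black bar at each median and a dotted line at the median of all genes. The medians run from -1.08 for proliferation genes to -0.10 for p53 targets, with recombination at -0.87 and end joining at -0.27.

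Between days 6 and 14 most of the difference was already present. Fancd2 was 2.35-fold lower, Exo1 2.12-fold and Fancb 2.05-fold lower, while Rad51c, below the background at day 14, was at least 1.77-fold lower. By value or bound these 3 were thus 2-fold lower. By deposited differences, which add Rad51c (-1.09), 4 of 35 members were 2-fold lower and 0 higher, where 3.92% of 11339 genes were lower and 5.50% higher. With dim values set at the background it was 3 members and 3.26% of genes. At 1.5-fold 15 members were lower and 0 higher, against 14.3% and 13.6% of all genes, and the median was -0.50 against -0.03 for all. All members but Atm (0.04) lay below 0. Day 6 is the same array in this and the preceding comparison, so the values are not independent.

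Several members lay just short of 2-fold at day 14, at -0.99 for Fanci, -0.98 for Ung and Rad54l, -0.97 for Brca2, -0.95 for Ogg1 and -0.92 for Chek1. With arrays shifted to equal hybridization controls these passed it, and 10 members were 2-fold lower. That shift, of -0.08 on every gene, turned the balance of all genes from 445 lower and 624 higher to 606 and 535. The count of members at day 14 thus depends on the scaling, while 0 were higher under either.

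At day 14 against day 6 the medians of the other lists were -0.82 for the replication genes, -0.84 for the proliferation genes and -0.25 for the 12 reference genes. They were -0.46 for further recombination genes, -0.39 for further checkpoint genes and -0.14 for further excision and end joining genes. For the 16 genes that p53 switches on, the median was 0.04, and 4 were 2-fold lower and 0 higher, or 3 and 0 with dim values set at the background.

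Between days 14 and 28 the repair genes differed little. Of 35 members 0 were 2-fold lower and 0 higher, where 1.39% and 2.22% of 11477 genes were, and the median was -0.09 against 0.04 for all genes. At 1.5-fold 2 members were lower, against 4.24% of all genes, and 2 were higher, against 7.67%. Those lower were Rad18 (-0.70, on the probe set used) and Exo1 (-0.69), and those higher Ogg1 (0.81, on the probe set used) and Rad51c (0.60 as deposited). The day 14 value of Rad51c was under the background, and it is shown to be at least 1.27-fold higher only, so by value or bound 1 member, Ogg1, was 1.5-fold higher.

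Over the course 21 members were lower in each step, 13 were lower and then higher, 1, Atm, was higher and then lower, and 0 were higher in each. The 9 members that were 2-fold lower at day 28 than at day 6 were all lower in each step, and the first step was the larger in 8, Brca1 being the exception. These 9 were chosen by the sum of both steps, so that each step is lower is in part built in. The first step spans fewer days than the second. The day 14 array enters one step as the later array and the other as the earlier, and the dips of Rad51c, Ogg1 and Brca2 there have no repeat array.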

How the data were processed

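Total RNA of the cells was hybridized to Affymetrix mouse arrays, per the labels' protocols, with 1 array at each of days 6, 14 and 28. The authors deposited 1 value for each of 45101 probe sets, read here as log2 values from their range. For probe summarization and the log base, nothing is stated in the sources used here, and base 2 is inferred. The 3 deposited columns were identical once sorted, so they were quantile normalized. Platform annotation, with symbols updated through a GRCm38.p6 gene table, gave 1 gene for 34958 probe sets and several for 932, and 9211 were not listed. Genes were represented by the probe set with the highest mean, and the background, the fold of 2 and the lists are as stated in the report. No test was possible with 1 array per time point, which sets the precision.

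The members and lists were chosen with earlier results of these data known. Members at least 1.5-fold apart in any comparison are given with all values. Of the other lists, the 3 most extreme genes in each direction between days 6 and 28, among those measured above background at both times, are named, which leaves out Orc1, Brip1, Apex2 and Nhej1. Of the cell type lists, up to 3 of the highest and lowest and the defining markers below the background are named. The reference genes named as examples were chosen after their values were seen. In the printed promoters Atm stands for the smallest difference because Fancg, smaller still, lay at the background. The 8 alternatives covered probe set choice, background, dim values, fold, scaling and filter. Python 3.11.15, numpy 2.4.6, pandas 2.3.3 and matplotlib 3.10.9 were used. The counting step was tested on simulated data for each comparison over 18194 genes. The genes changed there lay far above the background and well past 2-fold, with little noise. That test thus checks the counting and does not bear on dim genes or on differences near 2-fold.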

Additional observations from a re-analysis of the deposited data

How the results depend on the processing

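Of 35 members, the count 2-fold lower at day 28 than at day 6 (9 as reported) was 8 when probe sets were averaged, 8 of 31 when shared probe sets were left out and 18 at 1.5-fold, and 0 were higher under all 8 alternatives, while the median stayed between -0.69 and -0.58. For day 14 against day 6 (4 lower as reported) the count was 15 at 1.5-fold and 10 with equal hybridization controls, 3 at the lowest, and the median lay between -0.59 and -0.46. For day 28 against day 14, 1.5-fold gave 2 lower and 2 higher, and the other alternatives gave 0 of each with a median between -0.12 and -0.08. Single members that crossed 2-fold were few beside those of the hybridization scaling at day 14. Between days 6 and 28, Rad54l fell short when probe sets were averaged (-0.95), and Blm (-1.03) and Fanca (-1.05) passed with equal hybridization controls. Between days 6 and 14, Fancb fell short when probe sets were averaged (-0.93) or the median of genes was set to 0 (-0.99), Rad51c with dim values set at the background (-0.83), Rad18 passed when probe sets were averaged (-1.09) and Chek1 when shared probe sets were left out (-1.07). Signs turned for members with differences under 0.3 in size, among them Lig3 (-0.15), Atm and Fancg between days 6 and 28, and 5 members between days 14 and 28 when probe sets were averaged, which also turned Rad18 there, from -0.70 to 0.09. The endothelial marker median between days 6 and 14, resting on Cdh5 alone (2.15), was -0.0722 over all 9 markers without a filter, of which the other 8 lay below the background. No paired analysis was possible because each time point has 1 array. Leaving out a replicate was not possible for the same reason. Signal near the background limits Bard1, Fancg, Rad51b, Rad51c, Xrcc3 and Fancc.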
